A study of Homo sapiens with 6 samples.

Results

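Fatty acid and cholesterol synthesis genes were followed in LS 174T cells given propionate. The set held 41 genes, taken by symbol from a list of enzymes and regulators, and all 41 were found among the 24462 gene symbols in the count tables. It was divided by role into a fatty acid arm of 11 genes, a glycerolipid arm of 7 genes, an SREBP system of 5 genes and a sterol arm of 18 genes. All 41 passed the filter on low counts and were tested among 13605 genes.

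LS 174T is a human colorectal adenocarcinoma line that makes mucin and is used as a model of goblet cells, the mucus-secreting cells of the gut lining. One group was 3 libraries of cells treated with propionate, a short-chain product of gut bacteria, at 4 mM for 4 h, and the other was 3 control libraries of untreated cells. Both groups were this 1 line, carry no engineered change that the labels mention, and were held in serum-containing medium, so that lipid from serum was available to both. The series was set up to ask how propionate affects expression of the mucin gene MUC2. Nothing in the labels ties the replicates to separate cultures, and p-values therefore reflect only library-to-library spread, which could be technical.

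Acetyl-CoA in the cytosol is the shared precursor of both routes. One route builds saturated fatty acids through malonyl-CoA, elongates and desaturates them and joins them to glycerol to make phospholipids and triglyceride. The other runs through mevalonate, squalene and lanosterol to cholesterol. Enzyme genes of both routes are targets of the SREBP transcription factors, which are held in the endoplasmic reticulum by INSIG proteins when sterols are plentiful and are carried by SCAP to the Golgi for cleavage when they are not. In the colon epithelium these routes supply membranes and the acyl chains of secreted and stored lipid.

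Libraries held 11603288 to 12746170 reads, and 3 reads in a library corresponded to 0.235 to 0.259 CPM (reads per 1000000 reads of the library). Levels below use scaled library totals and are not divided by transcript length, so they are compared between groups and not between genes. On the first principal component, with 72.8% of the variance, the propionate libraries lay apart from the controls. Of 13605 genes tested, 2343 were higher and 2316 lower with propionate, with a median log2 fold change of -0.01. The colon and goblet list was detected in all 12 of its genes, 2 higher, 2 lower and 8 not called, and KRT20, a marker of differentiated colon epithelium, was near 1 CPM (1.37 with propionate and 1.26 in controls). Of 20 markers of other cell types 15 had a read, and they summed to 20.6 to 23.4 CPM in propionate libraries and 16.8 to 25.7 CPM in controls. DCN (fibroblasts), CD3E (T cells), and CDH5, VWF and KDR (endothelium) had no read in any library. COL1A1 (fibroblasts) was called higher at a low level, at 3.68 CPM with propionate against 0.886 CPM in controls, and its part in the results below was not tested.

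Across the 41 genes, 11 were higher and 1 was lower with propionate by edgeR's quasi-likelihood test at an adjusted p under 0.05, and 29 were not called. Among all genes tested, 17.2% were called higher and 17.0% lower. That fit left out the pairing of libraries by replicate number. Blocked by replicate number, 15 of the 41 were higher and 3 lower, against 2980 and 3074 of all genes tested. The median log2 fold change of the 41 was 0.11, and 30 of 41 lay above 0, against a median of -0.01 over all genes tested. In 15 of 41 all 3 propionate libraries were above all 3 controls, a separation seen in 22.4% of all genes tested, and in 3 of 41 all were below, as in 22.7% of all genes tested. The changes were small: AGPAT2, TM7SF2 and INSIG2 were the 3 that passed a fold of 1.5. At that fold 1345 of all 13605 genes tested were called higher and 968 lower. By the GENCODE release 29 annotation 17 of the 41 overlap an exon on the opposite strand, 9 of them a gene measured here, and counting without strand would mix such reads. In bulk libraries such as these, more cells of a kind and more RNA per cell cannot be told apart.

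By arm, in the SREBP system 4 of 5 genes were higher and 0 lower (median log2 fold change 0.34). In the sterol arm 5 of 18 were higher and 1 lower (median 0.06). In the fatty acid arm 1 of 11 was higher and 0 lower (median 0.10), and in the glycerolipid arm 1 of 7 was higher and 0 lower (median 0.12). These counts left out the pairing. Blocked by replicate number alone, the SREBP system had 4 higher and 0 lower, and the sterol arm 6 higher and 2 lower. With that block the fatty acid arm had 3 higher and 1 lower, and the glycerolipid arm 2 higher and 0 lower. Over all genes tested the block gave 2980 higher and 3074 lower. After removal of each library's transcript GC trend, in a fit blocked by replicate number, the SREBP system had 2 higher and 1 lower (median 0.07), the lower gene being SREBF2 (log2 fold change -0.25, adjusted p = 0.0101, range 0.00457 to 0.949 over 17 alternatives), and with the GC trend of the 3′ end removed it had 3 higher and 1 lower (median 0.18). With the transcript trend removed the fatty acid arm had 3 higher and 2 lower (median -0.04), and with the 3′ end trend 4 higher and 1 lower (median -0.01). The sterol arm had 4 higher and 3 lower (median 0.05) without the transcript trend and 4 higher and 4 lower (median 0.01) without the 3′ end trend. The glycerolipid arm had 1 higher and 1 lower (median 0.05) without the transcript trend and 1 higher and 0 lower (median 0.13) without the 3′ end trend. Over all genes tested there were 2508 higher and 3524 lower without the transcript trend, and 2526 and 3700 without the 3′ end trend. For the counts of 0 lower, an unadjusted edgeR p under 0.05 gave 1 lower gene in the fatty acid arm and 0 in the glycerolipid arm and the SREBP system, and DESeq2 and limma-voom called 0 lower in all 3. The difference between arms was not tested, since the genes of an arm are not replicates.

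**Figure D1:**
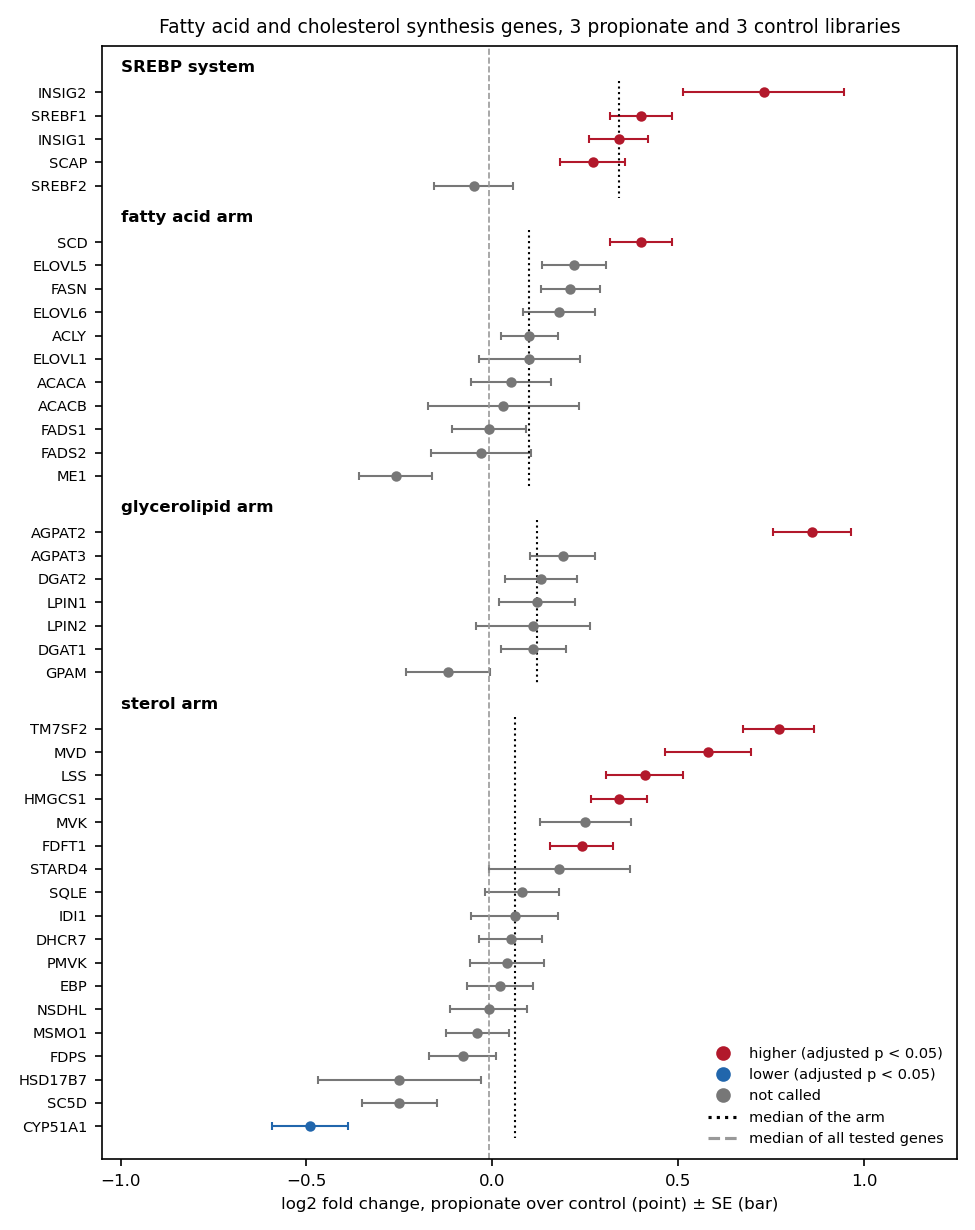
Log2 fold change of each of the 41 genes, propionate over control (points, with bars of 1 SE from edgeR, 3 libraries each), grouped by arm, with the median of each arm (dotted) and of all tested genes (dashed). The points of the SREBP system lie to the right of the dashed line except SREBF2, and CYP51A1 is the 1 gene called lower.

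As summed CPM, the 41 genes made up 4633, 4850 and 4618 CPM in propionate libraries 1, 2 and 3, and 4112, 4297 and 4094 CPM in control libraries 1, 2 and 3. The SREBP system summed to 510, 514 and 507 CPM with propionate, against 401, 425 and 422 CPM in controls, a ratio of means of 1.23. The ratio was 1.16 for the glycerolipid arm, 1.12 for the fatty acid arm and 1.1 for the sterol arm. Every propionate library lay above every control for each of these sums. Leaving out the 1 called gene of an arm, chosen after its values were seen, gave a ratio of 1.09 for the glycerolipid arm without AGPAT2 and 1.09 for the fatty acid arm without SCD.

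Promoters of the 3 genes that changed by at least 1.5-fold are shown because the 3 come from different arms and can be read side by side. Each runs 5′ to 3′ on the gene's own strand from 250 bases before to 50 after the RefSeq transcription start (GRCh38.p14), with matches to CCAAT or GGGCGG on either strand in capitals. AGPAT2 lies at chr9:136687408-136687707 on the minus strand, INSIG2 at chr2:118088221-118088520 on the plus strand (the first of 2 starts listed), and TM7SF2 at chr11:65111622-65111921 on the plus strand.
AGPAT2: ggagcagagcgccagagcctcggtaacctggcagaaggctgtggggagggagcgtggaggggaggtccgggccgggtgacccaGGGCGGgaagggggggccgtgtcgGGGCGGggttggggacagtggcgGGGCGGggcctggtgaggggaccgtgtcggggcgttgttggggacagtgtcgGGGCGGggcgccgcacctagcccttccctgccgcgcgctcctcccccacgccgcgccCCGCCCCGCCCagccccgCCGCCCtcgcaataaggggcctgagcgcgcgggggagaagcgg
INSIG2: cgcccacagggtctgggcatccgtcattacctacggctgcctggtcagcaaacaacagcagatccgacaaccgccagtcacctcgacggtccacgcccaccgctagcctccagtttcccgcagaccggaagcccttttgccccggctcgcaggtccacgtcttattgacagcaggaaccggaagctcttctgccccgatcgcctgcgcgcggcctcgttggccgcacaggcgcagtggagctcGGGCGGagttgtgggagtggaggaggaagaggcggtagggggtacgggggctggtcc
TM7SF2: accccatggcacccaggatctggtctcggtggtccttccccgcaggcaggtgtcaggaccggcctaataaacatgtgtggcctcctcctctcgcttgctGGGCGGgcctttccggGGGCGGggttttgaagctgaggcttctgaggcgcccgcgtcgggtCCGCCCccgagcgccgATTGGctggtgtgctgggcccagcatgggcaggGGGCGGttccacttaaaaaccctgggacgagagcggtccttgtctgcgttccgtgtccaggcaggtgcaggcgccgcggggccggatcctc
The AGPAT2 window held 7 GGGCGG matches, some of which overlap, and no CCAAT. INSIG2 held 1 GGGCGG match and no CCAAT, and TM7SF2 held 4 GGGCGG matches and 1 CCAAT, read as ATTGG on this strand. None of the 3 held the sterol regulatory element spelled TCACNCCAC on either strand.

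RefSeq windows were matched for 36 of the 41 genes, and DGAT1, DGAT2, FASN, FDFT1 and SQLE had no entry. The spelling TCACNCCAC was found in 1 of 36, SREBF2 (2.78%), against 1.39% of 27305 genes with a window. CCAAT was found in 25 of 36 (69.4%) against 39.7% of all genes with a window, and in 14 of the 16 sterol arm genes with a window (87.5%). GGGCGG was found in 33 of 36 (91.7%) against 48.3% of all genes with a window. The 27305 genes with a window were not limited to genes tested here, whereas all 41 were tested. A comparison with tested genes only was not made, so these shares do not show enrichment among the 41. CYP51A1, the 1 gene called lower, and PMVK were the 2 sterol arm genes without CCAAT in the window. These are matches of letters in a window and say nothing of binding.

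The SREBP system was the arm with the highest share of called genes. SREBF1, which encodes the SREBP form best known for driving fatty acid synthesis, had 136.4, 125.7 and 143.5 CPM in propionate libraries 1 to 3, against 97.3, 105.3 and 105.2 CPM in control libraries 1 to 3. All 3 propionate libraries were above all controls, and the change was 1.32-fold (log2 fold change 0.40, SE 0.0847, edgeR adjusted p = 0.0012). It overlaps RAI1 on the opposite strand, a gene at 37 CPM with propionate and 33.2 CPM in controls that was not called (log2 fold change 0.16, edgeR adjusted p = 0.255). SREBF2, which encodes the form best known for driving sterol synthesis, had 51.3, 68.5 and 56.4 CPM with propionate, against 58.1, 63.5 and 60.3 CPM in controls. Its groups overlapped and it was not called (log2 fold change -0.05, SE 0.106, edgeR adjusted p = 0.776). Within each library the ratio of SREBF1 to SREBF2 reads was 2.66, 1.84 and 2.54 with propionate, against 1.68, 1.66 and 1.74 in controls. The propionate ratios were all higher (two-sided exact permutation p = 0.1, the smallest that 3 against 3 can give). The p-value was also 0.1 adjusted over the 2 ratios computed, whose genes were chosen after their values were seen. Since 3 against 3 cannot give a p under 0.05 here, the ratio adds no support to the SREBF1 call.

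INSIG1, an anchor that retains SCAP with its cargo in the endoplasmic reticulum and is itself an SREBP target, had 187.8, 173.6 and 171.4 CPM with propionate, against 140.7, 135.6 and 143.3 CPM in controls. It was 1.27-fold higher with no overlap (log2 fold change 0.34, SE 0.0798, edgeR adjusted p = 0.00233). INSIG2, the second anchor, had few reads: 11.6, 6.83 and 8.97 CPM with propionate, from 149, 85 and 106 reads, against 5.25, 5.05 and 6.17 CPM in controls, from 60, 59 and 74 reads. Propionate library 1 was well above the other two, and library 2 was close to the highest control. The change was 1.66-fold (log2 fold change 0.73, SE 0.216, edgeR adjusted p = 0.0128), and without propionate library 1 it was not called (log2 fold change 0.52, adjusted p = 0.104, range 0.00109 to 0.104 over 17 alternatives).

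SCAP, the escort of SREBP proteins, had 122.9, 139.3 and 126.4 CPM with propionate, against 99.2, 115.6 and 107.2 CPM in controls. The groups did not overlap, and the lowest propionate library lay just above the highest control (1.21-fold, log2 fold change 0.27, SE 0.0877, edgeR adjusted p = 0.0218). This call was lost without propionate library 2 (adjusted p = 0.102) or without control library 1 (adjusted p = 0.115), and after removal of each library's transcript GC trend in a fit blocked by replicate number the log2 fold change was -0.01 (adjusted p = 0.912, range 0.000402 to 0.912 over 17 alternatives). SREBF1 was also not called in that fit (log2 fold change 0.07, adjusted p = 0.378, range 6.76e-06 to 0.378). INSIG1 was called in all 17 alternatives, with log2 fold changes from 0.30 to 0.44.

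**Figure D2:**
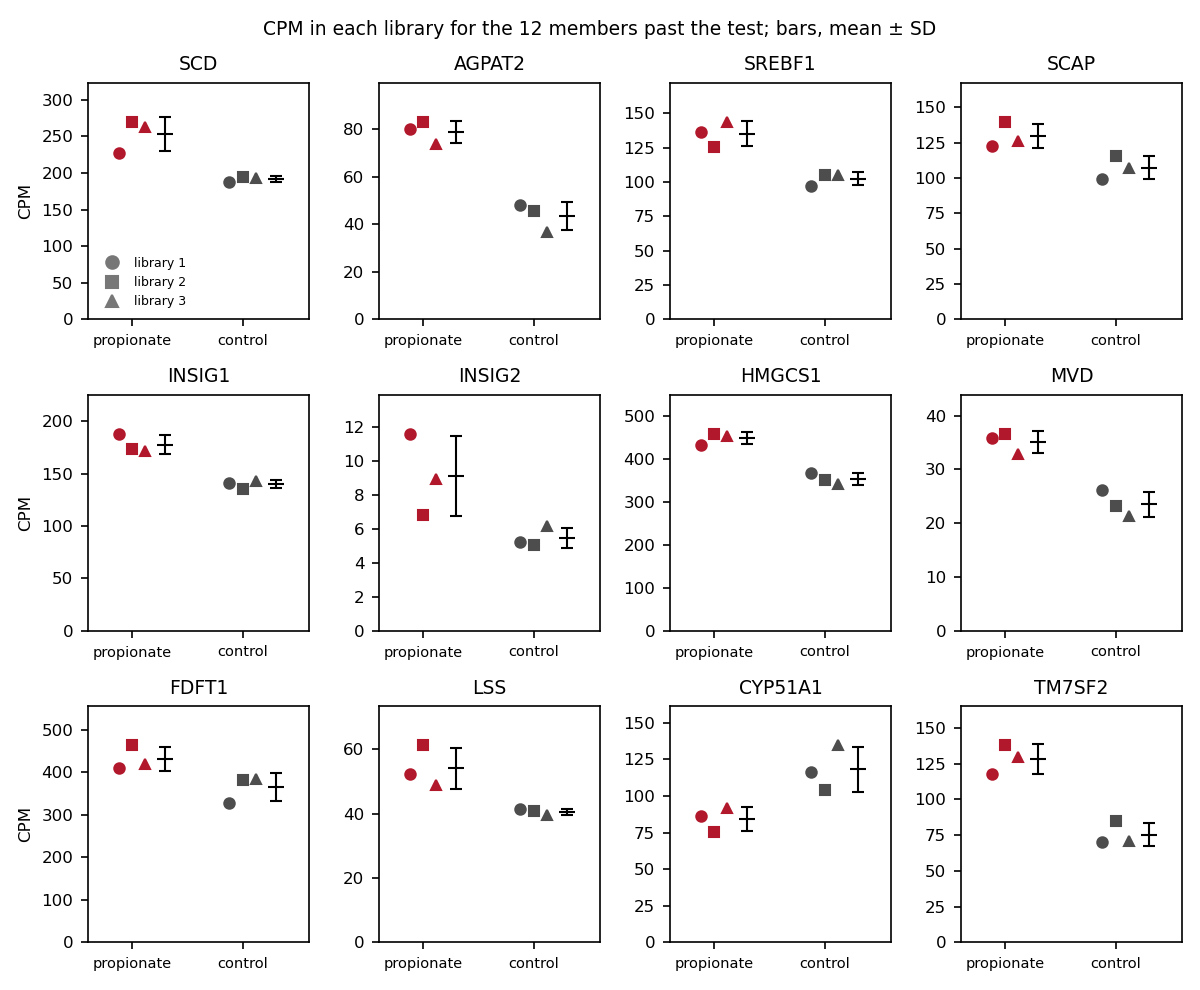
CPM (vertical axis, from 0) in each propionate library (red) and each control library (grey) for the 12 called genes, with symbols for libraries 1 to 3 and bars of mean ± SD (n = 3). The groups are separated in all 12 panels, with the narrowest gaps in INSIG2, SCAP and FDFT1, and CYP51A1 alone is lower with propionate.

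In the fatty acid arm 1 of 11 genes was called. SCD, the stearoyl-CoA desaturase that makes monounsaturated acyl chains, had 226.9, 269.2 and 263.2 CPM with propionate, against 187.8, 195.1 and 193.3 CPM in controls. Every propionate library was above every control, library 1 by the least, and the change was 1.32-fold (log2 fold change 0.40, SE 0.0836, edgeR adjusted p = 0.00107). It was called in all 17 alternatives, with log2 fold changes of 0.35 to 0.47. The other desaturases, FADS1 and FADS2, which act on polyunsaturated chains, had log2 fold changes of -0.01 and -0.03 and were not called (edgeR adjusted p = 0.928 and 0.9). FADS1 and FADS2 overlap on opposite strands, and without a stated strand setting their reads may be shared.

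FASN, the fatty acid synthase that assembles palmitate, had 454.3, 486.1 and 436.5 CPM with propionate, against 385.8, 427.3 and 380.0 CPM in controls. The groups did not overlap, but FASN missed the threshold (log2 fold change 0.21, SE 0.0799, edgeR adjusted p = 0.0518). In the fit blocked by replicate number it was called higher (adjusted p = 0.000786), and with the transcript GC trend also removed it was called lower (log2 fold change -0.13, adjusted p = 0.0291), in a range of 0.000786 to 0.339 over 17 alternatives.

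ACLY, the ATP-citrate lyase that supplies cytosolic acetyl-CoA, had 432.8, 411.6 and 429.3 CPM with propionate, against 394.6, 382.0 and 411.9 CPM in controls. Propionate library 2 lay just under the highest control, and ACLY was not called (log2 fold change 0.10, SE 0.0754, edgeR adjusted p = 0.332). Both acetyl-CoA carboxylases, which make malonyl-CoA, were near 0 in log2 fold change, at 0.05 for ACACA (edgeR adjusted p = 0.749) and 0.03 for ACACB (edgeR adjusted p = 0.938). ACACB was a low gene, at 6.82 ± 0.99 CPM with propionate and 6.7 ± 0.753 CPM in controls (SD, n = 3 each).

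ME1, the cytosolic malic enzyme that supplies NADPH, ran the other way, at 38.9, 36.7 and 38.3 CPM with propionate, against 43, 45.3 and 47.8 CPM in controls. All 3 propionate libraries were below the controls, and ME1 missed the threshold (log2 fold change -0.26, SE 0.0985, edgeR adjusted p = 0.0516). It was called lower in the blocked fit (adjusted p = 0.0165, range 0.0165 to 0.221 over 17 alternatives).

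Of the 3 elongases, which lengthen acyl chains, none was called, and their log2 fold changes were 0.22 for ELOVL5, 0.18 for ELOVL6 (edgeR adjusted p = 0.17) and 0.10 for ELOVL1 (edgeR adjusted p = 0.602). At an unadjusted p under 0.05 edgeR gave 1 of the 3, and DESeq2 and limma-voom called 0. ELOVL5 had 86.8, 85.8 and 94.6 CPM with propionate, against 76.7, 77.2 and 74.9 CPM in controls. Its groups were well separated, and it narrowly missed the threshold, with an edgeR p of 0.0171 whose adjusted value lay just above 0.05. It was called higher in 8 of 17 alternatives, among them the blocked fit (adjusted p = 0.00709, range 0.00057 to 0.182).

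The glycerolipid arm, which joins acyl chains to glycerol, had AGPAT2 as its 1 called gene of 7. AGPAT2, an acyltransferase that makes phosphatidic acid, had 80.2, 82.9 and 73.8 CPM with propionate, against 48, 45.8 and 36.8 CPM in controls. The lowest propionate library was far above the highest control, and no other of the 41 genes had a larger fold change: 1.81-fold, log2 fold change 0.86 (SE 0.105, edgeR adjusted p = 4.66e-06). It was called in all 17 alternatives, with log2 fold changes from 0.52 to 0.93. Its paralog AGPAT3 had 100.1, 110.4 and 104.3 CPM with propionate, against 96.8, 94.6 and 84.3 CPM in controls. AGPAT3 did not overlap between groups but was not called (log2 fold change 0.19, SE 0.0875, edgeR adjusted p = 0.101), except in the blocked fit (adjusted p = 0.017, range 0.017 to 0.547 over 17 alternatives).

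The first and last enzymes of triglyceride synthesis were not called. GPAM, the mitochondrial acyltransferase that starts the route, averaged 26.2 ± 1.9 CPM with propionate and 28.4 ± 0.926 CPM in controls (SD, n = 3 each; log2 fold change -0.12, edgeR adjusted p = 0.455). DGAT1, which adds the last acyl chain, had 112.1, 118.5 and 125.3 CPM with propionate, against 107.3, 120.1 and 102.8 CPM in controls. Control library 2 lay above propionate libraries 1 and 2, and DGAT1 was not called (log2 fold change 0.11, SE 0.0875, edgeR adjusted p = 0.371), whereas after transcript GC removal in the blocked fit it was called lower (log2 fold change -0.19, adjusted p = 0.0176, range 0.0176 to 0.707 over 17 alternatives). DGAT1 overlaps HSF1 on the opposite strand.

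DGAT2, a second enzyme for the same last step, had 47.8, 47.8 and 47.2 CPM with propionate, against 43.5, 46.2 and 40.8 CPM in controls. All propionate libraries were above the controls, and it was not called (log2 fold change 0.13, edgeR adjusted p = 0.324). The lipins LPIN1 and LPIN2, which convert phosphatidic acid to diacylglycerol, had log2 fold changes of 0.12 and 0.11 (edgeR adjusted p = 0.4 and 0.609), and both overlapped between groups.

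By stage of the sterol route, the shares can be read against the 17.2% called higher and 17.0% called lower among all genes tested, and the difference between stages was not tested. From HMG-CoA to farnesyl diphosphate, 2 of 6 genes were higher and 0 lower (median log2 fold change 0.16). Of the 3 genes from there to lanosterol 2 were higher and 0 lower (median 0.24). In both of these stages 0 genes were lower at an unadjusted edgeR p under 0.05, by DESeq2 or by limma-voom. From lanosterol to cholesterol 1 of 8 (12.5%) was higher and 1 (12.5%) lower (median -0.02), both shares under those of all genes. The summed reads of the last stage were 734, 768 and 741 CPM with propionate, against 734, 755 and 719 CPM in controls, a ratio of 1.02, and without TM7SF2 they were 616, 630 and 611 CPM with propionate, against 663, 671 and 648 CPM in controls, a ratio of 0.938. Without TM7SF2, left out after its value was seen, every propionate sum was below every control, and for the whole stage the groups overlapped.

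**Figure D3:**
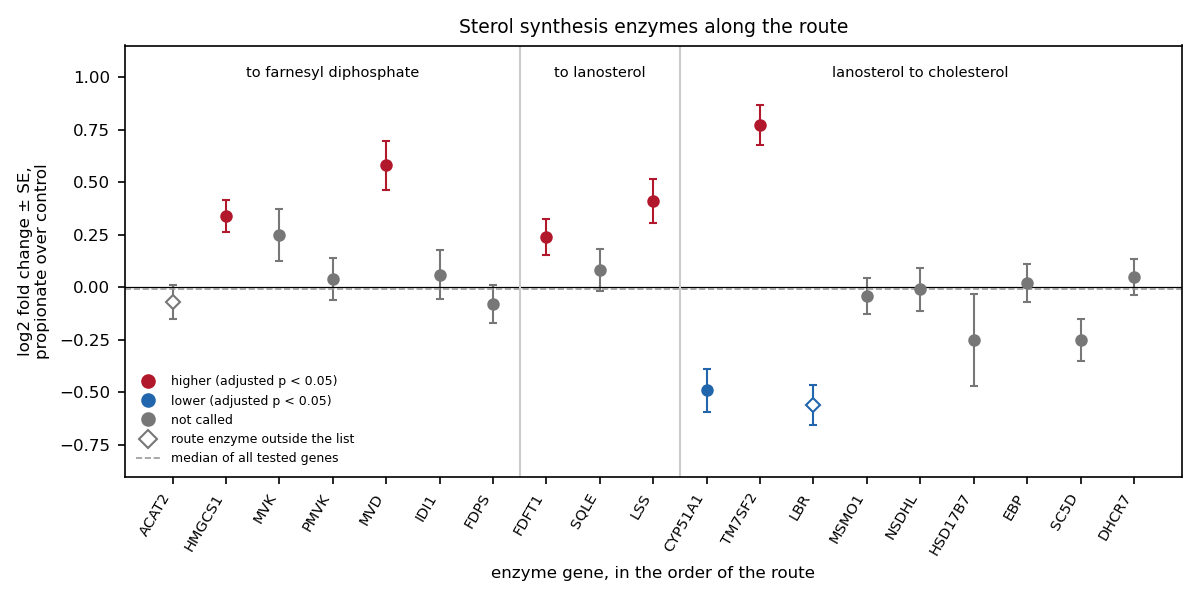
Log2 fold change (propionate over control, ± 1 SE from edgeR, 3 libraries each) of sterol synthesis enzymes in the order of the route, circles for members and open diamonds for ACAT2 and LBR, route enzymes outside the 41. Called increases lie before and just after lanosterol, and CYP51A1 and LBR lie below 0.

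HMGCS1, the cytosolic HMG-CoA synthase, had 432.3, 457.7 and 453.6 CPM with propionate, against 366.9, 350.1 and 341.4 CPM in controls. It was higher in every propionate library (1.27-fold, log2 fold change 0.34, SE 0.0757, edgeR adjusted p = 0.00157) and was called in all 17 alternatives, with log2 fold changes from 0.32 to 0.45.

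MVD, the mevalonate diphosphate decarboxylase, had 35.8, 36.6 and 32.8 CPM with propionate, against 26.1, 23.2 and 21.3 CPM in controls. Its groups were clearly apart, at 1.49-fold (log2 fold change 0.58, SE 0.115, edgeR adjusted p = 0.000676). After transcript GC removal in the blocked fit it was not called (log2 fold change 0.23, adjusted p = 0.0536), nor with the trend of the 3′ end (log2 fold change 0.24, adjusted p = 0.0505), in a range of 2.87e-05 to 0.0536 over 17 alternatives.

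Of the other genes to farnesyl diphosphate, MVK, the mevalonate kinase, had 71.4, 94 and 67.8 CPM with propionate, against 60.4, 76.8 and 58.3 CPM in controls. In both groups library 2 was the highest, so that the groups overlapped while propionate was higher in 3 of 3 same-numbered pairs. MVK was not called (log2 fold change 0.25, SE 0.123, edgeR adjusted p = 0.119) but was in the blocked fit (adjusted p = 0.00343, range 0.00343 to 0.968 over 17 alternatives). It overlaps MMAB on the opposite strand, which was called lower (log2 fold change -0.33, edgeR adjusted p = 0.0486).

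PMVK, the next kinase, and IDI1, the isopentenyl diphosphate isomerase, had log2 fold changes of 0.04 and 0.06 (edgeR adjusted p = 0.792 and 0.717). IDI1 overlaps IDI2-AS1, which was called higher from a low level (2.81 CPM with propionate and 0.849 CPM in controls, log2 fold change 1.71, edgeR adjusted p = 0.00218). FDPS, the farnesyl diphosphate synthase, averaged 228.0 ± 18.8 CPM with propionate and 240.3 ± 25.2 CPM in controls (SD, n = 3 each; log2 fold change -0.08, edgeR adjusted p = 0.56). Its value is uncertain: the antisense gene RUSC1-AS1 carried nearly the same counts, at 224.9 CPM with propionate and 234.0 CPM in controls, and 8 FDPS pseudogenes are annotated.

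FDFT1, the squalene synthase that commits farnesyl diphosphate to sterols, had 410.0, 463.7 and 419.7 CPM with propionate, against 327.3, 382.2 and 385.5 CPM in controls. All propionate libraries were higher, and control library 1 was well below the other controls (1.18-fold, log2 fold change 0.24, SE 0.0849, edgeR adjusted p = 0.0346). Its call was lost without control library 1 (adjusted p = 0.201), propionate library 2 (adjusted p = 0.146) or propionate library 3 (adjusted p = 0.0521), in a range of 2.99e-05 to 0.201 over 17 alternatives.

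SQLE, the squalene epoxidase, averaged 73.7 ± 10.1 CPM with propionate and 69.7 ± 1.58 CPM in controls (SD, n = 3 each) and was not called (log2 fold change 0.08, edgeR adjusted p = 0.573). LSS, the lanosterol synthase that closes the sterol rings, had 52.2, 61.2 and 48.8 CPM with propionate, against 41.3, 40.9 and 39.6 CPM in controls. The controls were close together and all propionate libraries were above them (1.33-fold, log2 fold change 0.41, SE 0.104, edgeR adjusted p = 0.00434), and the call held in all 17 alternatives, with log2 fold changes from 0.21 to 0.48.

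Among the members that act after lanosterol, 2 were called, in opposite directions. CYP51A1, the lanosterol demethylase, was the 1 gene of the 41 called lower: it had 86.3, 75.6 and 91.6 CPM with propionate, against 116.2, 104.0 and 134.5 CPM in controls. Every propionate library was below every control, at 1.4-fold lower (log2 fold change -0.49, SE 0.102, edgeR adjusted p = 0.00105). TM7SF2, a sterol reductase that acts on the product of CYP51A1, had 117.5, 137.8 and 129.4 CPM with propionate, against 70.5, 84.7 and 70.9 CPM in controls. It was 1.7-fold higher with a wide gap between groups (log2 fold change 0.77, SE 0.0954, edgeR adjusted p = 5.6e-06). Both were called in all 17 alternatives, with log2 fold changes from -0.57 to -0.39 for CYP51A1 and from 0.49 to 0.86 for TM7SF2. TM7SF2 shares exon sequence on the same strand with VPS51, which was not called (log2 fold change -0.14, edgeR adjusted p = 0.258), and 3 CYP51A1 pseudogenes are annotated.

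LBR, the lamin B receptor, carries the same reductase activity as TM7SF2 and was not among the 41. It had 234.9, 204.5 and 247.1 CPM with propionate, against 320.5, 306.1 and 383.4 CPM in controls, and all propionate libraries were lower (log2 fold change -0.56, edgeR adjusted p = 0.000153). The ratio of TM7SF2 to LBR reads within a library was 0.5, 0.674 and 0.524 with propionate, against 0.22, 0.277 and 0.185 in controls. All 3 propionate ratios were above all 3 control ratios (two-sided exact permutation p = 0.1, the smallest that 3 against 3 can give, 0.1 adjusted over the 2 ratios). TM7SF2 was above and LBR below the controls in every propionate library, so this outcome was fixed by those values. The ratio adds no support to the 2 calls.

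The other 6 genes after lanosterol were not called. SC5D, the lathosterol oxidase, had 52.2, 55.2 and 57.3 CPM with propionate, against 58.9, 62.8 and 73.6 CPM in controls. All propionate libraries were below the controls by a narrow gap (log2 fold change -0.25, SE 0.1, edgeR adjusted p = 0.065), and SC5D was called lower in the blocked fit (adjusted p = 0.00939, range 0.00939 to 0.295 over 17 alternatives). MSMO1 and NSDHL, which strip the methyl groups of lanosterol, had log2 fold changes of -0.04 and -0.01 (edgeR adjusted p = 0.758 and 0.955).

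EBP, the sterol isomerase, averaged 192.6 ± 11 CPM with propionate and 190.0 ± 20.3 CPM in controls, and DHCR7, which completes cholesterol from its last precursor in one branch, averaged 126.3 ± 3.26 CPM with propionate and 121.9 ± 10.1 CPM in controls (SD, n = 3 each). Their log2 fold changes were 0.02 and 0.05 (edgeR adjusted p = 0.889 and 0.689). HSD17B7, a ketosteroid reductase of this stage, and STARD4, a cytosolic sterol carrier counted in this arm, were low, at 6.29 ± 1.2 and 8.82 ± 1.43 CPM with propionate against 7.5 ± 1.72 and 7.82 ± 1.09 CPM in controls (SD, n = 3 each). Neither was called (log2 fold changes -0.25 and 0.18, edgeR adjusted p = 0.414 and 0.516), and HSD17B7 has 2 annotated pseudogenes.

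The fold changes followed the GC content of the transcript in all genes. Among genes ranked by GC content, the top quintile, from 58.5 to 74.7%, had 33% higher and 8.81% lower (median log2 fold change 0.18), and the bottom quintile, from 29.6 to 41.2%, had 8.26% higher and 22.4% lower (median -0.13). Of the 41 genes, 10 were in the top quintile, with 5 higher and a median of 0.26, and 9 were in the bottom quintile, with 2 higher and a median of 0.06. AGPAT2, TM7SF2, MVD, SREBF1 and SCAP were the 5 in the top quintile, and INSIG2 and HMGCS1 the 2 in the bottom one. The median GC content was 57.9% in the SREBP system, 55.3% in the glycerolipid arm, 50.1% in the fatty acid arm and 49.5% in the sterol arm, against 48.9% over all genes tested. After transcript GC removal in the blocked fit, the 41 genes gave 10 higher and 7 lower calls (58.8% of calls higher), against 11 and 1 (91.7% higher) without it and 15 and 3 (83.3% higher) with the block alone. Over all genes tested the calls shifted the same way. With GC removal 2508 were higher and 3524 lower (41.6% of calls higher), against 50.3% higher without it and 49.2% with the block alone.

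**Figure D4:**
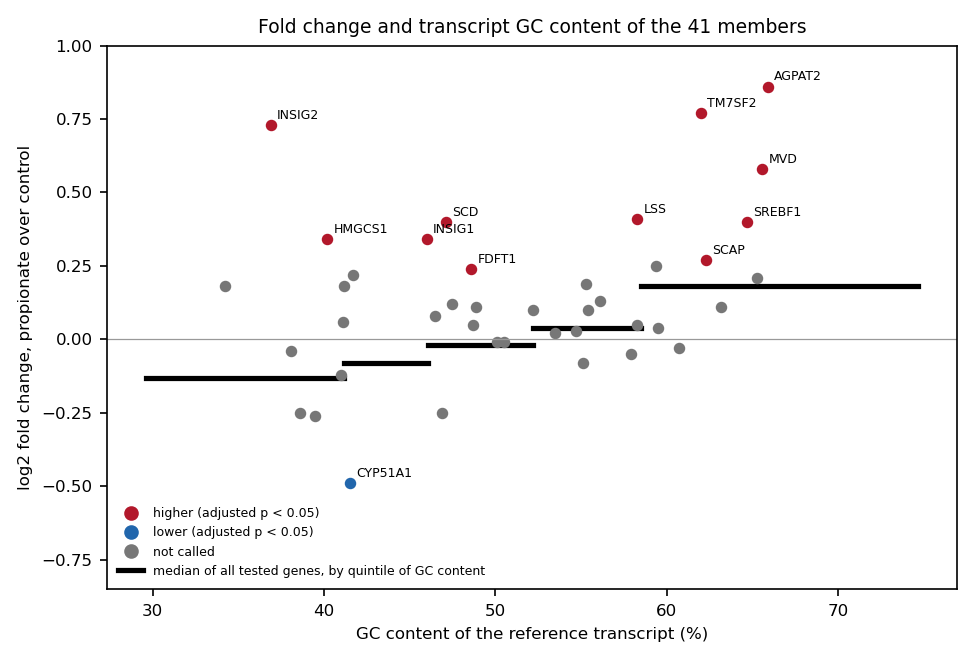
Log2 fold change (propionate over control) of the 41 genes against the GC content of their reference transcript in percent, colored by call, with black bars at the median of all tested genes in each quintile of GC content. The bars climb with GC content, and INSIG2, HMGCS1, INSIG1, SCD and FDFT1 were called higher at a GC content of 48.6% or less, above the bar at their GC content.

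Genes of the same pathways outside the 41 gave the following counts, beside which 17.2% of all genes tested were higher and 17.0% lower. Of 22 other fatty acid synthesis genes tested 6 (27.3%) were higher and 0 lower (median log2 fold change 0.21), and 1 was lower at an unadjusted edgeR p under 0.05 and 0 by DESeq2 or limma-voom. FADS3, a desaturase relative, was 1.65-fold higher (38.4 ± 3.05 CPM with propionate and 23.3 ± 1.43 CPM in controls, SD, n = 3 each, edgeR adjusted p = 5.73e-05). ACSS2, which makes acetyl-CoA from free acetate, was 1.67-fold higher at 26.6 ± 0.983 CPM with propionate and 15.9 ± 0.423 CPM in controls (SD, n = 3 each, edgeR adjusted p = 0.000105). ACSL3, an acyl-CoA synthetase of lipid droplets, was 1.39-fold higher (edgeR adjusted p = 0.000538).

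Of 29 other glycerolipid synthesis genes, 11 (37.9%) were higher and 1 (3.45%) lower (median 0.17). CHKA, the choline kinase at the start of phosphatidylcholine synthesis, was 1.8-fold higher (edgeR adjusted p = 3.1e-05), LPCAT3, which puts polyunsaturated chains into phospholipids, 1.41-fold higher (edgeR adjusted p = 0.000441) and PCYT2, of phosphatidylethanolamine synthesis, 1.35-fold higher (edgeR adjusted p = 0.000672). CHPT1, a cholinephosphotransferase, was lower (log2 fold change -0.33, edgeR adjusted p = 0.0289). The first 2 of these were called in all 17 alternatives, PCYT2 in 16 and CHPT1 in 13.

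Of 14 other sterol synthesis genes tested, 0 were higher and 4 (28.6%) lower (median -0.15), and 0 were higher at an unadjusted edgeR p under 0.05, by DESeq2 or by limma-voom. Beside LBR these included NUS1, of dolichol synthesis (log2 fold change -0.33, edgeR adjusted p = 0.0313), and PDSS1, of ubiquinone side-chain synthesis (log2 fold change -0.35, edgeR adjusted p = 0.0388). LBR was called in all 17 alternatives, NUS1 in 10 and PDSS1 in 9. ACAT2, which makes acetoacetyl-CoA, was not called (log2 fold change -0.07, edgeR adjusted p = 0.568).

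Of 16 other genes of SREBP processing and related factors, 2 (12.5%) were higher and 2 (12.5%) lower, both shares under those of all genes (median -0.03). MLXIPL, which encodes the glucose-responsive factor ChREBP, was 1.83-fold higher, at 143.1, 182.2 and 148.3 CPM with propionate, against 92, 90.1 and 77.3 CPM in controls. The groups lay far apart (edgeR adjusted p = 2.44e-06), and RXRA, a nuclear receptor partner, was 1.31-fold higher (edgeR adjusted p = 0.00536). SEC23A, a coat protein of vesicles that leave the endoplasmic reticulum, and NR1H2, a liver X receptor, were lower (log2 fold changes -0.64 and -0.49, edgeR adjusted p = 0.00169 and 0.0271). The GC fits took the call from RXRA, and leaving out single libraries took it from NR1H2.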

How the data were processed

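Messenger RNA was measured in 6 libraries of LS 174T cells, 3 given 4 mM propionate for 4 h and 3 untreated controls, made with a Lexogen QuantSeq kit per the labels' protocols. The authors deposited whole-number read counts, not normalized, in a table of 25737 lines for each library. The submitters' processing notes name Bowtie2, edgeR, hg19 and GRCh37 with no role, while no counter, strand setting or annotation is given in the sources used here. Groups come from the treatment labels and replicate numbers from the marks on the sample titles.

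Lines that share a symbol were summed (286 symbols, none of them among the 41 genes). Counts were filtered with filterByExpr, scaled by TMM and tested with edgeR 4.0.16 (quasi-likelihood F test, R 4.3.3) on all 13605 genes left, with Benjamini-Hochberg adjustment and a threshold of 0.05, and the code was tested on simulated data. CPM values use the TMM-scaled totals. The SE is the log2 fold change divided by the square root of F. The 41 genes, the arms and the other lists were chosen with earlier results of these data known. Every member is accounted for. Values in each library are given for all called members and for the member with the most reads in each arm, and those of some other members were added after their values were seen. Of each other list up to 3 called genes per direction are named, by smallest p. ACAT2 belongs to the sterol route and was named after its value was seen. GPAT2, AGPAT6, AGPAT9 and the ELOVL genes outside the 41 were also named after their values were seen. Some genes of these lists are counted but not reported here by name.

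Same-numbered propionate and control libraries deviated together from their group means (r = 0.244, 0.4 and 0.446 over 9286 genes above 10 CPM, against -0.357 to 0.00906 for unlike numbers). Each same-numbered value is above the limit of 0.1 set for every pair. Same numbers were therefore treated as pairs in the fits blocked by replicate number. The main calls, SEs and adjusted p-values came from a fit without the pairing. The pairing thus comes from the data, and no label states a shared culture or day. Alternatives were limma-voom (limma 3.58.1), DESeq2 1.42.0, other scaling factors, filters and thresholds, the replicate block, leaving out each library, and the block with each library's GC trend removed by a natural spline with 4 degrees of freedom on transcript GC content in GENCODE release 29. A version with the GC content of the last 500 bases was added after the data were seen. Promoters were read from a RefSeq table of GRCh38.p14.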

Additional observations from a re-analysis of the deposited data

How the results depend on the processing

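Of the 12 called genes, 7 (SCD, AGPAT2, INSIG1, HMGCS1, LSS, CYP51A1 and TM7SF2) kept their call in all 17 alternatives fitted to each gene, and of the 29 uncalled genes 15 stayed uncalled in all of them. Over all genes, 2343 were higher and 2316 lower at an adjusted p of 0.05. At an adjusted p of 0.01, 3009 genes passed in both directions together, and at 0.05 with a fold of at least 1.5 as well, 2313 did. At 1.5-fold the 41 genes gave 3 higher and 0 lower calls (fatty acid arm 0 higher, SREBP system 1 higher, sterol arm 1 higher and 0 lower), and at an adjusted p of 0.01 the SREBP system gave 2 higher.

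In the fatty acid arm, with 1 higher call, the count was 3 with DESeq2 size factors, upper-quartile factors or library totals, and 2 with the DESeq2 test, limma-voom, a filter of 1 CPM in 3 libraries or one line per symbol. The replicate block gave 15 higher and 3 lower calls among the 41, with 3 higher and 1 lower in the fatty acid arm, 2 higher in the glycerolipid arm and 2 lower in the sterol arm. The block and its pairing took no call from a gene called without it.

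With the block and the transcript GC trend removed there were 10 higher and 7 lower calls: the fatty acid arm had 3 higher and 2 lower (median log2 fold change -0.04), the glycerolipid arm 1 lower, the SREBP system 2 higher and 1 lower (median 0.07) and the sterol arm 3 lower. With the GC trend of the 3′ end instead there were 12 higher and 6 lower calls: 4 higher and 1 lower in the fatty acid arm (median -0.01), 1 lower in the SREBP system (median 0.18) and 4 lower in the sterol arm. Over all genes the median was -0.05 in both fits. Of all genes tested, 2508 were higher and 3524 lower with the transcript trend removed, and 2526 and 3700 with that of the 3′ end. Log2 fold changes that turned sign with the transcript and the 3′ end trend removed were -0.10 and -0.15 for ACACB, -0.13 and -0.06 for FASN, -0.05 and -0.16 for ELOVL1, -0.19 and -0.14 for DGAT1, -0.03 and -0.06 for DGAT2, -0.19 and -0.18 for PMVK, 0.07 and 0.03 for MSMO1, -0.08 and -0.15 for EBP, and -0.15 and -0.18 for DHCR7. SCAP turned to -0.01 with the transcript trend and MVK to -0.00 with that of the 3′ end. In these fits SREBF2, FADS2 and FDPS were called lower and ELOVL5 and ELOVL6 higher, ACLY was called higher with the 3′ end trend, FASN, DGAT1 and DHCR7 were called lower with the transcript trend and EBP and DHCR7 with the 3′ end trend, and the cause was not tested.

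Under upper-quartile factors FADS1 turned to 0.01 and NSDHL to 0.02, and under library totals to 0.00 and 0.01. Leaving out each library in turn, the 41 genes gave 1 to 2 lower calls (2 without control library 1), the fatty acid arm 1 to 2 higher (2 without control library 2) and the sterol arm 1 to 2 lower (2 without control library 1). Uncalled genes that turned sign when a library was left out ran from 0.00 to 0.15 for ACACA, -0.08 to 0.13 for ACACB, -0.06 to 0.21 for ELOVL1, -0.09 to 0.04 for FADS1, -0.19 to 0.15 for FADS2, -0.17 to 0.04 for SREBF2, -0.01 to 0.08 for PMVK, -0.01 to 0.21 for IDI1, -0.02 to 0.18 for SQLE, -0.07 to 0.01 for MSMO1, -0.09 to 0.06 for NSDHL and -0.07 to 0.06 for EBP. None of these 12 was called with all libraries or without any one library. Depth limits the low genes INSIG2, ACACB, HSD17B7 and STARD4 most.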

Other observations

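The lipid droplet is the organelle that stores the triglyceride made by the glycerolipid arm. Of 13 lipid droplet and lipolysis genes tested, 6 were higher and 3 lower with propionate, with a median log2 fold change of 0.21, against 17.2% higher and 17.0% lower over all genes. PNPLA2, the lipase that starts triglyceride breakdown, had 167.9, 165.7 and 157.5 CPM with propionate, against 86.1, 88.5 and 72.2 CPM in controls (1.99-fold, edgeR adjusted p = 1.58e-07). PLIN3, a droplet coat protein, had 136.4, 191.9 and 168.9 CPM with propionate, against 83.3, 89.9 and 85.9 CPM in controls (1.92-fold, edgeR adjusted p = 1.48e-06). PLIN5, a coat protein known from oxidative tissues, was 3.06-fold higher at 13.6 ± 3.05 CPM with propionate and 4.45 ± 1.18 CPM in controls (SD, n = 3 each, edgeR adjusted p = 1.46e-05). The groups did not overlap in any of the 3. ABHD5, which activates PNPLA2, was lower at 23.5 ± 1.18 CPM with propionate and 33.8 ± 1.43 CPM in controls (edgeR adjusted p = 0.001), as was HILPDA, which inhibits PNPLA2 (91.9 ± 7.37 CPM with propionate and 123.6 ± 7 CPM in controls, edgeR adjusted p = 0.000942; SD, n = 3 each). These 5 genes were called in all 17 alternatives. CIDEB, a droplet protein of lipoprotein assembly, was also lower (log2 fold change -0.48, edgeR adjusted p = 0.0407) and was called in 10 of them.

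Of 17 genes of sterol uptake, storage and efflux, 7 were higher and 0 lower by edgeR, with a median log2 fold change of 0.15. At an unadjusted p under 0.05 edgeR gave 1 lower, and DESeq2 called 0 and limma-voom 1 lower. GRAMD1A, which moves cholesterol from the plasma membrane to the endoplasmic reticulum, had 17.8, 19.8 and 21.1 CPM with propionate, against 5.77, 4.96 and 6.42 CPM in controls (3.41-fold, edgeR adjusted p = 1.97e-07). SOAT1, which esterifies cholesterol for storage, had 15.3, 16 and 17.1 CPM with propionate, against 4.37, 5.48 and 4.92 CPM in controls (3.27-fold, edgeR adjusted p = 4.53e-07). Every propionate library was far above every control for both. STARD5, a sterol-binding protein, was 1.47-fold higher (edgeR adjusted p = 0.00109), and all 3 genes were called in all 17 alternatives.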
